A study of Mus musculus with 22 samples.

Results

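The chemokine, cytokine and prostaglandin enzyme genes followed here were 10 in number: the CC chemokines Ccl2, Ccl7 and Ccl17, the CXC chemokines Cxcl1, Cxcl5 and Cxcl12, the interleukin-6 family cytokines Il6 and Lif, and the cyclooxygenases Ptgs1 and Ptgs2. They were picked by gene symbol and not by a value. Of the 10, 9 were matched to rows among the 11208 genes of the normalised count table. Il6 is not analysed here. No gene in the table had a mean over all libraries below 99.6 normalised read counts. All 9 members passed the filter of at least 10 normalised read counts in 2 or more libraries.

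All samples were NIH/3T3 cells, an established mouse embryonic fibroblast line, with a stable doxycycline-inducible construct that was either empty (EV, the empty-vector line) or encoded E2F1, a transcription factor of cell-cycle entry (the E2F1 line). Whether each line was 1 clone or a pool is not given in the sources used here. Every sample, controls included, had first been starved for 48 h in 0.25% heat-inactivated fetal bovine serum, which brings these cells to rest. The E2F1 line and the EV line were then sampled at 0, 2, 6 and 12 h of 500 ng/ml doxycycline, and the EV line also at 2, 6 and 12 h of 10% serum. Each of the 11 groups held 2 libraries of polyadenylated RNA. The labels do not say that they came from separate cultures, so p-values measure the spread between these libraries, which may be technical. Serum and doxycycline changes in the EV line were taken against the same pair of EV 0 h libraries, and the changes of these comparisons are therefore not independent.

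Chemokines are small secreted proteins that direct cell movement: Ccl2 and Ccl7 act on monocytes through Ccr2, Ccl17 acts on T cells through Ccr4, Cxcl1 and Cxcl5 act on neutrophils through Cxcr2, and Cxcl12 acts through Cxcr4 and Ackr3. Lif signals through Lifr and Il6st to the kinase Jak1 and the transcription factor Stat3. Ptgs1 and Ptgs2 convert arachidonic acid to prostaglandin H, from which the other prostaglandins are made; Ptgs1 is regarded as the steadily expressed enzyme, and Ptgs2 as the inducible one. In fibroblasts, Ptgs2, Ccl2, Ccl7, Cxcl1 and Lif are textbook early genes of the response to serum, growth factors or inflammatory signals, and several of their mRNAs are short-lived.

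RefSeq promoter windows (GRCm38.p6) were found for 6 of the 9 members: Ccl17, Cxcl1, Cxcl12, Lif, Ptgs1 and Ptgs2. The remaining members are Ccl2, Ccl7 and Cxcl5. The 250 bases before the RefSeq start are shown for the 3 members whose windows held a motif match: the cyclooxygenase Ptgs2 (chr1:150099781-150100030, plus strand), the cytokine Lif (chr11:4257318-4257567, plus strand) and the CXC chemokine Cxcl1 (chr5:90890995-90891244, plus strand). Capitals mark motif matches, and the last bases of the Lif and Cxcl1 windows lie inside the GENCODE gene.
Ptgs2: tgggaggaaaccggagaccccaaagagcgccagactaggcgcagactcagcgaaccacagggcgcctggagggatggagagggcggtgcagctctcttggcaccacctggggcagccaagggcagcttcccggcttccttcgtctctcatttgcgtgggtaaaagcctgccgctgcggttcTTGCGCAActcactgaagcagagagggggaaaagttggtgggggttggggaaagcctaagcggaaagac
Lif: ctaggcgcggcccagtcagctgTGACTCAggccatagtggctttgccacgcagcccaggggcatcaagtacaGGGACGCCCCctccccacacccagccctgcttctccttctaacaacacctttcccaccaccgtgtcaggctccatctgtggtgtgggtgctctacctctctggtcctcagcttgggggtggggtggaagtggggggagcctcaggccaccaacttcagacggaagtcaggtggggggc
Cxcl1: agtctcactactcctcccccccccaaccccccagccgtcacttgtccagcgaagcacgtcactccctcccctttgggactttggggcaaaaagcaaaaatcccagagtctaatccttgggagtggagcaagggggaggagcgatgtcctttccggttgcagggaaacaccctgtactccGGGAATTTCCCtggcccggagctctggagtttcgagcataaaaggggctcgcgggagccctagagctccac

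The motifs searched on both strands were NF-kB (by name), AP-1 (TGANTCA), the cyclic AMP response element CRE (TGACGTCA), E2F (TTTCGCGC, TTTGGCGC, TTTCCCGC or TTTGCCGC), the TATA box (TATAAA), C/EBP (TTGCNNAA) and the serum response element core CArG (by name). Ptgs2 held a C/EBP match from -69 to -62 relative to the RefSeq start, a motif in 9.56% of all 32851 windows. Lif held an AP-1 match from -228 to -222, a motif in 6.75% of all windows, and an NF-kB match from -178 to -169. Cxcl1 held NF-kB matches on both strands, from -71 to -62 and from -70 to -61, which overlap each other. NF-kB matches were in 7.25% of all windows. No match to any of these motifs was found in the windows of Ccl17, Cxcl12 and Ptgs1, and none of the 6 windows held the E2F, CRE, TATA or CArG letters, which were in 1.86%, 1.55%, 12.4% and 1.47% of all windows. Among the 11012 windows of genes in the table, NF-kB matches were in 8.8%, AP-1 in 4.15% and C/EBP in 7.14%. E2F letters were in 3.52% of these, CRE in 2.72%, TATA in 6.08% and CArG in 1.12%. A match is a string of letters and was not tested for binding.

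In these libraries E2f1 itself was at 1703 and 1637 normalised read counts in the E2F1 line at 0 h, 1535 and 1755 in the libraries labelled 2 h, 3806 and 3602 at 6 h, and 2683 and 2845 at 12 h. It was between 1307 and 1655 in the EV line at 0 h and with doxycycline, and reached 4615 and 4247 with serum at 12 h. Totals per library ran from 34014608 to 46057140 normalised read counts. Of 11 fibroblast markers, 10 were in the table, with summed levels from 437223 to 1053354, and none of the 4 endothelial or 5 epithelial markers was in it. Of 8 macrophage and other leukocyte markers, Csf1r and Cd14 were in the table.

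The 2 h libraries stood apart in genes that tell the lines apart. For 7 genes with a gap of at least 3 log2 units between the lines at 0, 6 and 12 h (Adamts9, Arc, Brinp3, Ddx3y, Serpine2, Tmem176a and Tmem176b, all higher in the E2F1 line), a linear scale was set from the mean EV level (0%) to the mean E2F1-line level (100%). On it the libraries labelled E2F1 line, 2 h lay at 59.8% and 54.3%, those labelled EV line, doxycycline 2 h at 10.2% and 12.2%, and those labelled EV line, serum 2 h at 5.60% and 5.49%. The EV libraries at 0 h and at 6 and 12 h of doxycycline were at most at 0.388%, but they helped choose the genes and set 0%. The E2F1-line libraries at 0, 6 and 12 h set 100% in the same way. The EV libraries at 6 and 12 h of serum, which had no part in the choice, lay from -1.93% to -1.07%. These genes and this scale were chosen after the data were seen. The part of this shift in the 2 h results was not tested. The highest value in any E2F1-line library was 2280 for Ccl2, 726 for Lif and 6341 for Ptgs2. For these genes and for Ccl7, Ccl17, Cxcl1 and Ptgs1, every E2F1-line library was below both serum 2 h libraries. For Cxcl5 and Cxcl12 the highest E2F1-line value, 696 and 4204, was above both serum 2 h libraries. Those stood at 586 and 672 for Cxcl5, and at 1575 and 2406 for Cxcl12. All changes at 6 and 12 h below were also computed without the 6 libraries labelled 2 h.

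At 0 h the resting lines already differed in 2 members: Cxcl12 was higher and Ccl17 lower in the E2F1 line. Of all genes, 15.0% were called between the lines at 0 h (called here means an adjusted p of at most 0.05 over all 11208 genes, by limma). Cxcl12 stood at 4204 and 3999 normalised read counts in the E2F1 line and at 1549 and 1191 in the EV line. The log2 difference was 1.59 ± 0.24 (SE, adjusted p = 0.000291). Ccl17 stood at 60 and 21 in the E2F1 line and at 137 and 220 in the EV line, a log2 difference of -2.25 ± 0.45 (adjusted p = 0.00284), which gave -1.52 and an adjusted p of 0.0594 without E2F1 0 h replicate 2. Cxcl5, at 696 and 417 against 223 and 62, and Cxcl1, at 188 and 63 against 48 and 31, did not pass (adjusted p = 0.0617 and 0.212). Cxcl5 passed under quantile normalization (2.31, adjusted p = 0.0453) and without EV 0 h replicate 1 (3.10, adjusted p = 0.0360). Levels between genes can be set side by side per kilobase of exons: in the EV line at 0 h, Ccl7 was at 1524, Ccl2 at 1316, Ptgs2 at 1171, Ptgs1 at 993, Ccl17 at 347, Cxcl12 at 168, Cxcl5 at 76.5, Cxcl1 at 21.1 and Lif at 15.5 normalised read counts per kilobase.

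**Figure D1:**
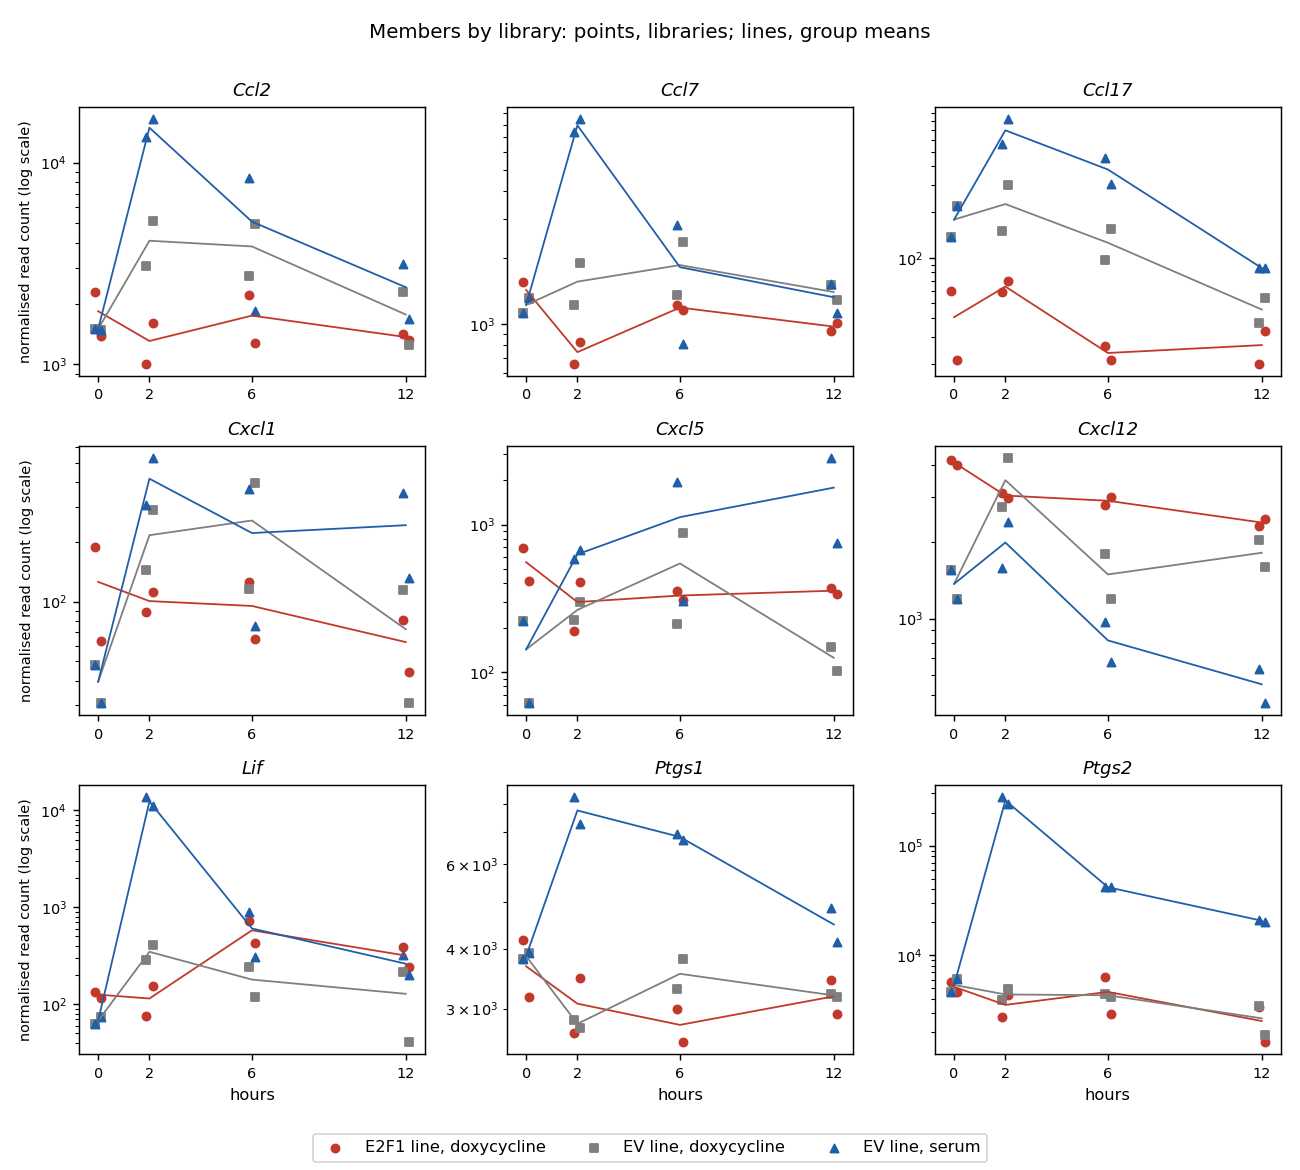
Normalised read counts (log axis) of the 9 members against hours, in the E2F1 line with doxycycline (red circles), the EV line with doxycycline (grey squares) and the EV line with serum (blue triangles); points are single libraries, lines join group means, and the EV 0 h libraries are drawn for both EV series. With serum, Ptgs2 went from 4606 and 6123 to 275844 and 241108 at 2 h, and Lif from 62 and 73 to 13633 and 11103.

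Serum raised 8 of the 9 members at 2 h, all but Cxcl12, against 70.9% of all genes called in that comparison in either direction and 4200 of 11208 called higher. Ptgs2, the inducible cyclooxygenase, had 4606 and 6123 normalised read counts in the EV line at 0 h and 275844 and 241108 after 2 h of serum. At 6 h it was at 41913 and 41625, and at 12 h at 21107 and 20245. The serum libraries of all 3 times lay above every other library of the series, the highest of which was the E2F1 line at 6 h (6341). Against 0 h the log2 change was 5.60 ± 0.34 (2 h), 2.98 ± 0.34 (6 h) and 1.96 ± 0.34 (12 h), with adjusted p of 6.47e-11, 4.16e-07 and 6.2e-05. Per kilobase of exons, Ptgs2 reached 56436 in the 2 h serum group, above Ccl2, the next highest member there at 13091.

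Ptgs1, the other cyclooxygenase, moved in the same direction over a smaller range. It had 3799 and 3914 normalised read counts in the EV line at 0 h, 8252 and 7248 at 2 h of serum, 6927 and 6726 at 6 h, and 4857 and 4121 at 12 h. All 6 serum libraries lay above both 0 h libraries. The log2 change passed at 2 h (1.00 ± 0.14, adjusted p = 2.58e-06) and 6 h (0.82 ± 0.14, adjusted p = 3.24e-05) and not at 12 h, where the adjusted p was 0.170.

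Lif, the cytokine, had the largest change of the members and ranked 4 of all 11208 genes by log2 change at 2 h of serum. It went from 62 and 73 normalised read counts to 13633 and 11103, a log2 change of 7.49 ± 0.59 (adjusted p = 2.29e-09). At 6 h the libraries stood at 905 and 304, and at 12 h at 321 and 202. All serum libraries were above both 0 h libraries, with log2 changes of 2.94 ± 0.59 (6 h, adjusted p = 0.000259) and 1.90 ± 0.59 (12 h, adjusted p = 0.00893). The 12 h call was lost without serum 12 h replicate 1 (1.57, adjusted p = 0.0775).

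Among the CC chemokines, Ccl2 went from 1506 and 1490 normalised read counts to 13393 and 16403 at 2 h of serum, a log2 change of 3.31 ± 0.51 (adjusted p = 1.32e-05). Ccl7, its neighbour on chromosome 11, went from 1125 and 1316 to 7425 and 8462, a log2 change of 2.70 ± 0.37 (adjusted p = 3.09e-06). Ccl17 went from 137 and 220 to 566 and 820, a log2 change of 1.97 ± 0.45 (adjusted p = 0.000783). The serum 2 h libraries of all 3 genes lay above every other library of the series. At 6 h the libraries of a group no longer agreed: Ccl2 was at 8359 and 1841, and Ccl7 at 2808 and 812, so that replicate 2 of Ccl7 was below both 0 h libraries. Ccl7 did not pass at 6 h (adjusted p = 0.468), but did without serum 6 h replicate 2 (1.21, adjusted p = 0.00107). Ccl2 passed at 6 h (1.39 ± 0.51, adjusted p = 0.0230), but stood at 0.30 (adjusted p = 0.582) without serum 6 h replicate 1, and missed the threshold without EV 0 h replicate 1 (adjusted p = 0.0680) or 2 (0.0697), with equal totals (1.17, adjusted p = 0.0510) and in a fit of these 2 groups alone (adjusted p = 0.0661). Ccl17, at 457 and 307, passed too (1.10 ± 0.45, adjusted p = 0.0386), and not without either serum 6 h replicate 1 (0.82, adjusted p = 0.212) or EV 0 h replicate 1 (0.77, adjusted p = 0.241), nor with equal totals (0.89, adjusted p = 0.0866) or without the 2 h libraries (adjusted p = 0.0536). At 12 h neither Ccl2 (3151 and 1675) nor Ccl7 (1526 and 1119) passed, and Ccl17 was at 86 and 85, below both 0 h libraries, with a log2 change of -1.01 ± 0.45 that did not pass (adjusted p = 0.0569), although it did with a pseudocount of 8 (adjusted p = 0.0438), equal totals (0.0394), the 2 groups alone (0.0261) or without EV 0 h replicate 1 (0.0450). The gene of Ccl2 (chr11:82035571-82037453, plus strand, GRCm38) overlaps Gm17268 on the minus strand. Use of strand in counting is not given in the sources used here, so reads of the 2 genes cannot be told apart; the same holds for Ptgs1 (chr2:36230426-36252272, plus strand) and Gm43621.

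The neutrophil chemokines Cxcl1 and Cxcl5 had the largest log2 changes of the members at 12 h of serum. Cxcl1 went from 48 and 31 normalised read counts to 304 and 525 at 2 h of serum, 367 and 75 at 6 h, and 352 and 132 at 12 h. Every serum library was above both 0 h libraries, and the log2 change was 3.34 ± 0.77, 2.08 ± 0.77 and 2.45 ± 0.77 (adjusted p = 0.000769, 0.0232 and 0.00928). Cxcl5 went from 223 and 62 to 586 and 672 at 2 h, 1945 and 304 at 6 h, and 2819 and 747 at 12 h. Its log2 change was 2.40 ± 0.77, 2.70 ± 0.77 and 3.61 ± 0.77 (adjusted p = 0.00919, 0.00463 and 0.000456), and at 12 h it ranked 13 of all genes. The 12 h serum group was the highest of the 11 for Cxcl5, whereas for 7 of the other members it was the 2 h serum group. Without EV 0 h replicate 2, which held the lower 0 h value of both genes, the Cxcl5 change at 2 h was 1.49 (adjusted p = 0.144) and at 6 h 1.78 (adjusted p = 0.0867), and Cxcl1 did not pass at 6 h (1.77, adjusted p = 0.114) or 12 h (2.14, adjusted p = 0.0591). Without serum 6 h replicate 1 the 6 h changes were 0.94 for Cxcl1 (adjusted p = 0.340) and 1.36 for Cxcl5 (adjusted p = 0.139), and without serum 12 h replicate 1 the 12 h change of Cxcl1 was 1.75 (adjusted p = 0.116).

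Cxcl12, which many stromal cells make at rest, went the other way. In the EV line it stood at 1549 and 1191 normalised read counts at 0 h, 1575 and 2406 at 2 h of serum, 969 and 674 at 6 h, and 637 and 468 at 12 h. The 2 h value did not pass (adjusted p = 0.0590), but did without EV 0 h replicate 1 (0.71, adjusted p = 0.0381) or serum 2 h replicate 1 (0.82, adjusted p = 0.0135). At 6 and 12 h both serum libraries were below both 0 h libraries. The log2 change was -0.75 ± 0.24 at 6 h, with an adjusted p of 0.00984, and -1.31 ± 0.24 at 12 h, with an adjusted p of 9.96e-05. The 6 h fall was lost without EV 0 h replicate 1 (-0.56, adjusted p = 0.101) or serum 6 h replicate 2 (-0.49, adjusted p = 0.137). The 12 h serum group was the lowest of the 11 groups for Cxcl12, and the E2F1 line at 0 h the highest, with group means 7.42-fold apart.

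In all, 8 of 9 members were called with serum at 6 h, 7 higher and Cxcl12 lower, against 67.5% of all genes, and 5 of 9 at 12 h, 4 higher and Cxcl12 lower, against 65.7%. Of the 8 calls at 2 h, all but that of Cxcl5 held without any 1 library. Most genes in the table moved with serum, so the shares called say little by themselves. By size at 2 h, Lif ranked 4, Ptgs2 17, Cxcl1 92, Ccl2 95, Ccl7 169, Cxcl5 244 and Ccl17 395 of 11208 genes, while Ptgs1 ranked 1543 and Cxcl12 3105. The median log2 change was 2.70 over the 9 members and 0.03 over all genes. The leukocyte markers Csf1r and Cd14, the 2 of 8 listed that were in the table, were also higher with serum. Their sum was 990 and 937 normalised read counts at 2 h of serum, 690 and 771 at 6 h and 560 and 963 at 12 h. It was 261 and 368 in the EV line at 0 h and 95 to 456 over the doxycycline groups of both lines from 2 h on. The part of these markers in the serum results was not tested. In bulk RNA, a change in the number of cells of a type and in RNA per cell cannot be told apart.

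**Figure D2:**
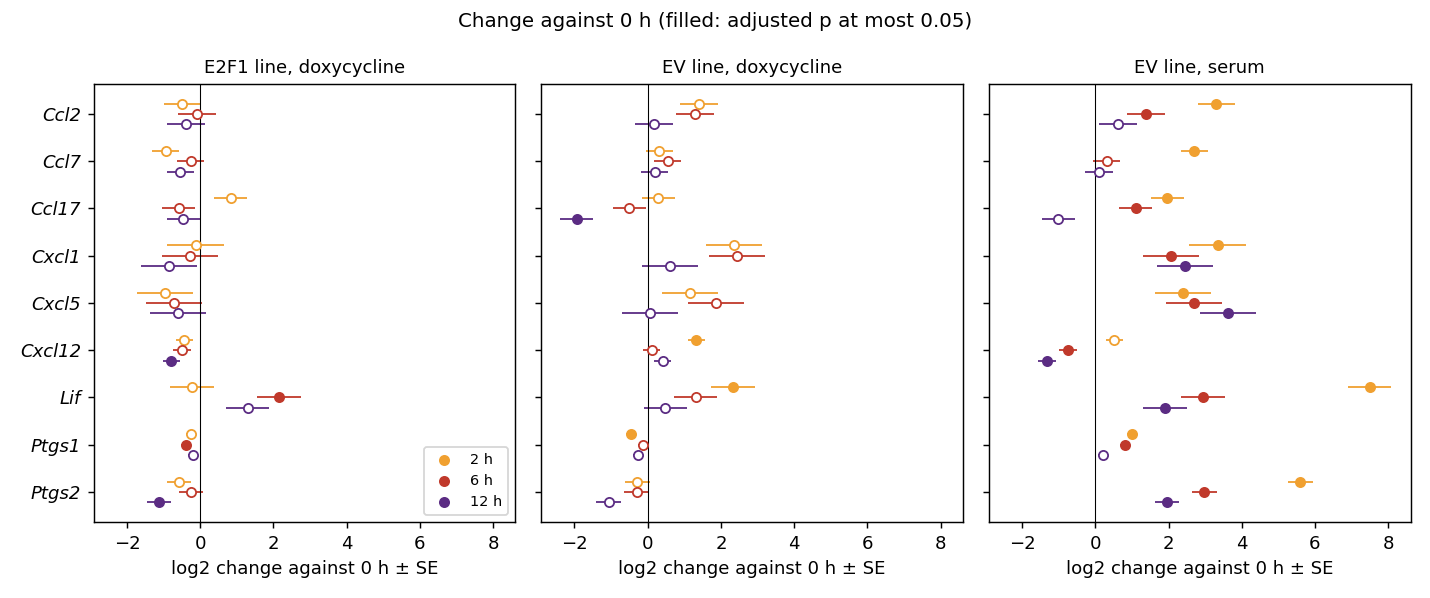
Log2 change of each member against 0 h (points, with SE as bars) at 2, 6 and 12 h in the E2F1 line with doxycycline, the EV line with doxycycline and the EV line with serum; filled points have an adjusted p of at most 0.05. The serum panel holds changes up to 7.49 (Lif at 2 h), while the only filled rise in the E2F1 panel is Lif at 6 h, at 2.15.

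Doxycycline alone in the EV line also moved members at 2 h, with 3 of 9 called against 7.35% of all genes. Lif was at 287 and 408 normalised read counts against 62 and 73 at 0 h, a log2 change of 2.33 ± 0.59 (adjusted p = 0.0226). Cxcl12 was at 2735 and 4262 against 1549 and 1191, a log2 change of 1.33 ± 0.24 (adjusted p = 0.00294). Ptgs1 fell to 2844 and 2735 from 3799 and 3914, a log2 change of -0.47 ± 0.14 (adjusted p = 0.0425). In these 3 genes the 2 h libraries lay outside the range of the 0 h libraries. These are the libraries labelled EV line, doxycycline 2 h, in which the line-marker genes lay 10.2% and 12.2% of the way to the E2F1-line level. The EV 2 h libraries of Lif were above the E2F1 line's 134 and 117 at 0 h and 75 and 154 at 2 h. They were below its 726 and 432 at 6 h and overlapped its 391 and 244 at 12 h. Of the EV 2 h libraries of Cxcl12, 4262 was above all E2F1-line libraries and 2735 was below both of that line at 0 h. The part of the line-marker shift in these values was not tested. Each of the Lif and Ptgs1 calls was lost without any 1 of its 4 libraries (adjusted p = 0.0643 to 0.183 for Lif and 0.110 to 0.223 for Ptgs1), and that of Cxcl12 without EV 2 h replicate 2 (1.01, adjusted p = 0.0740). With equal totals Ptgs1 did not pass (adjusted p = 0.0548).

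Ccl2, Cxcl1 and Cxcl5 of the EV line at 2 h of doxycycline did not pass. Ccl2 was at 3082 and 5123 normalised read counts against 1506 and 1490, a log2 change of 1.41 ± 0.51 (adjusted p = 0.105). Both values exceeded every library of the E2F1 line. Cxcl1 was at 144 and 287 against 48 and 31 (2.37 ± 0.77, adjusted p = 0.0692), and Cxcl5 at 227 and 301 against 223 and 62 (1.14 ± 0.77, adjusted p = 0.399). In a fit of these 2 groups alone, Ccl2 (adjusted p = 0.00465) and Cxcl1 (adjusted p = 0.0153) passed.

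At 6 h of doxycycline in the EV line none of the 9 members passed, where limma called 0.134% of all genes. At an unadjusted limma p under 0.05, 4 of 9 members were higher. Of all 11208 genes, 661 had such a p, in either direction. Ccl2 was at 2741 and 4945 normalised read counts (1.30 ± 0.51), Cxcl1 at 116 and 395 (2.44 ± 0.77), Cxcl5 at 212 and 879 (1.87 ± 0.77) and Lif at 241 and 118 (1.31 ± 0.59), with adjusted p of 0.772, 0.622, 0.780 and 0.836. Cxcl5 overlapped the 0 h libraries. At 12 h, 1 of 9 was called, against 4.17% of all genes: Ccl17 fell to 37 and 54 from 137 and 220, a log2 change of -1.93 ± 0.45 (adjusted p = 0.0198). That call was lost without EV 0 h replicate 2 (-1.59, adjusted p = 0.348) or EV 12 h replicate 1 (-1.67, adjusted p = 0.203), and with quantile normalization (-1.70, adjusted p = 0.0522) or the 2 groups alone (adjusted p = 0.0720). Ptgs2 was at 3455 and 1865 against 4606 and 6123, a log2 change of -1.06 ± 0.34 that did not pass (adjusted p = 0.0909).

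In the E2F1 line, Lif rose and Ptgs1, Ptgs2 and Cxcl12 fell at some time of doxycycline. In the libraries labelled 2 h, 0 of 9 passed, against 1.86% of all genes, with 1 member, Ccl7, at an unadjusted p under 0.05 (662 and 830 against 1550 and 1302 normalised read counts, adjusted p = 0.234). Of all 11208 genes, 1676 had such an unadjusted p. At 6 h, 2 of 9 were called against 51.7% of all genes, and at 12 h, 2 of 9 against 61.5%. These counts depended on the fit. With the 2 groups of each comparison alone, 2 of 9 passed at 2 h (5.32% of all genes), 4 at 6 h (53.5%) and 6 at 12 h (62.4%), and with quantile normalization 4 at 12 h (64.7%).

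Lif was the member that rose in the E2F1 line, from 134 and 117 normalised read counts at 0 h to 726 and 432 at 6 h, and stood at 391 and 244 at 12 h. The libraries at both times were above both 0 h libraries. The log2 change passed at 6 h (2.15 ± 0.59, adjusted p = 0.00562) and not at 12 h (1.30 ± 0.59, adjusted p = 0.0658). Without E2F1 6 h replicate 1 the 6 h change was 1.78 (adjusted p = 0.0632). In a fit of the 2 groups alone the 12 h change passed (adjusted p = 0.00028), as it did with quantile normalization (1.47, adjusted p = 0.0390) and with a replicate block (adjusted p = 0.0411). The EV line with doxycycline alone had 241 and 118 at 6 h and 215 and 41 at 12 h. The change of Lif did not differ past the threshold between the lines (adjusted p = 0.464 at 6 h, 0.439 at 12 h), so a larger rise of Lif in the E2F1 line than with doxycycline alone was not shown. Without EV doxycycline 12 h replicate 1 the 12 h difference was 2.00 (adjusted p = 0.0318).

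Ptgs2 fell in the E2F1 line at 12 h, to 3398 and 1627 normalised read counts from 5719 and 4579, a log2 change of -1.12 ± 0.34 (adjusted p = 0.00805). The EV line with doxycycline had 3455 and 1865 at the same time, and the difference between the lines did not pass (adjusted p = 0.931). The fall in the E2F1 line did not pass without E2F1 12 h replicate 2 (-0.59, adjusted p = 0.182) or E2F1 0 h replicate 1 (-0.96, adjusted p = 0.0643). Ptgs1 fell at 6 h, to 2990 and 2560 from 4169 and 3179, a log2 change of -0.40 ± 0.14 (adjusted p = 0.0209). That call was lost without E2F1 0 h replicate 1 (-0.20, adjusted p = 0.295) or E2F1 6 h replicate 2 (-0.28, adjusted p = 0.171).

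Ccl2, Ccl7, Ccl17, Cxcl1 and Cxcl5 passed at no time in the E2F1 line in the fit of all groups. In fits of the 2 groups alone, Ccl7 passed at 2 h (-0.94, adjusted p = 0.00111) and 12 h (-0.55, 0.000835), Cxcl5 at 6 h (-0.71, 0.0212) and 12 h (-0.60, 0.0172), and Ccl2 at 12 h (-0.38, 0.0468), all lower. Ccl17 passed without E2F1 0 h replicate 2 at 6 h (-1.32, adjusted p = 0.0351) and 12 h (-1.19, adjusted p = 0.0441). Over its 8 libraries, Ccl2 ranged from 1010 to 2280, Ccl7 from 662 to 1550, Ccl17 from 20 to 70, Cxcl1 from 44 to 188 and Cxcl5 from 191 to 696 normalised read counts. Cxcl12 fell, from 4204 and 3999 at 0 h to 3115 and 2972 at 2 h, 2797 and 3010 at 6 h, and 2318 and 2452 at 12 h. Both libraries of each later group lay below both 0 h libraries, and the log2 change passed at 12 h (-0.78 ± 0.24, adjusted p = 0.00833). With the 2 groups alone Cxcl12 also passed at 2 h (adjusted p = 0.00513) and 6 h (adjusted p = 0.000679), and at 6 h with equal totals (-0.62, adjusted p = 0.0332) or quantile normalization (-0.75, adjusted p = 0.0102).

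Cxcl12 was also the member whose doxycycline change differed between the lines. At 2 h, 1 of 9 members was called by this test, with the lower change in the E2F1 line, against 0.143% of all genes, and at 12 h 1 of 9, against 50.5%. At 6 h it was 0 of 9, against 34.5% of all genes, with Cxcl1 and Cxcl5 at an unadjusted p under 0.05 (log2 differences of -2.71 ± 1.08 and -2.57 ± 1.08, adjusted p = 0.0611 and 0.0741). Of all 11208 genes, 5014 had such an unadjusted p at 6 h. Cxcl1 passed there with equal totals (adjusted p = 0.0485), the replicate block (0.0489) and the groups alone (0.0454), Cxcl5 with quantile normalization (0.0479), and Ccl2 (-1.38) with the groups alone (0.0418). For Cxcl12 the log2 difference was -1.76 ± 0.34 at 2 h, with an adjusted p of 0.0483, and -1.19 ± 0.34 at 12 h, with an adjusted p of 0.00665. The 2 h change on its own passed in the EV line and not in the E2F1 line (adjusted p = 0.425), and both rest on libraries whose line markers lay between the lines. It was lost without any 1 of 6 of its 8 libraries (adjusted p = 0.125 to 0.226), E2F1 0 h and 2 h replicates 1 and 2, EV 0 h replicate 2 and EV 2 h replicate 2. At 12 h, Cxcl12 was at 2318 and 2452 in the E2F1 line and 2033 and 1596 in the EV line, so the lines, which differed at 0 h, were closer together. Ccl17 at 12 h (1.48 ± 0.64) did not pass (adjusted p = 0.0628), but did with a pseudocount of 8 (1.39, adjusted p = 0.0493) or without E2F1 0 h replicate 1 (2.21, adjusted p = 0.00729), E2F1 12 h replicate 1 (1.83, 0.0448) or EV 0 h replicate 1 (1.82, 0.0431).

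**Figure D3:**
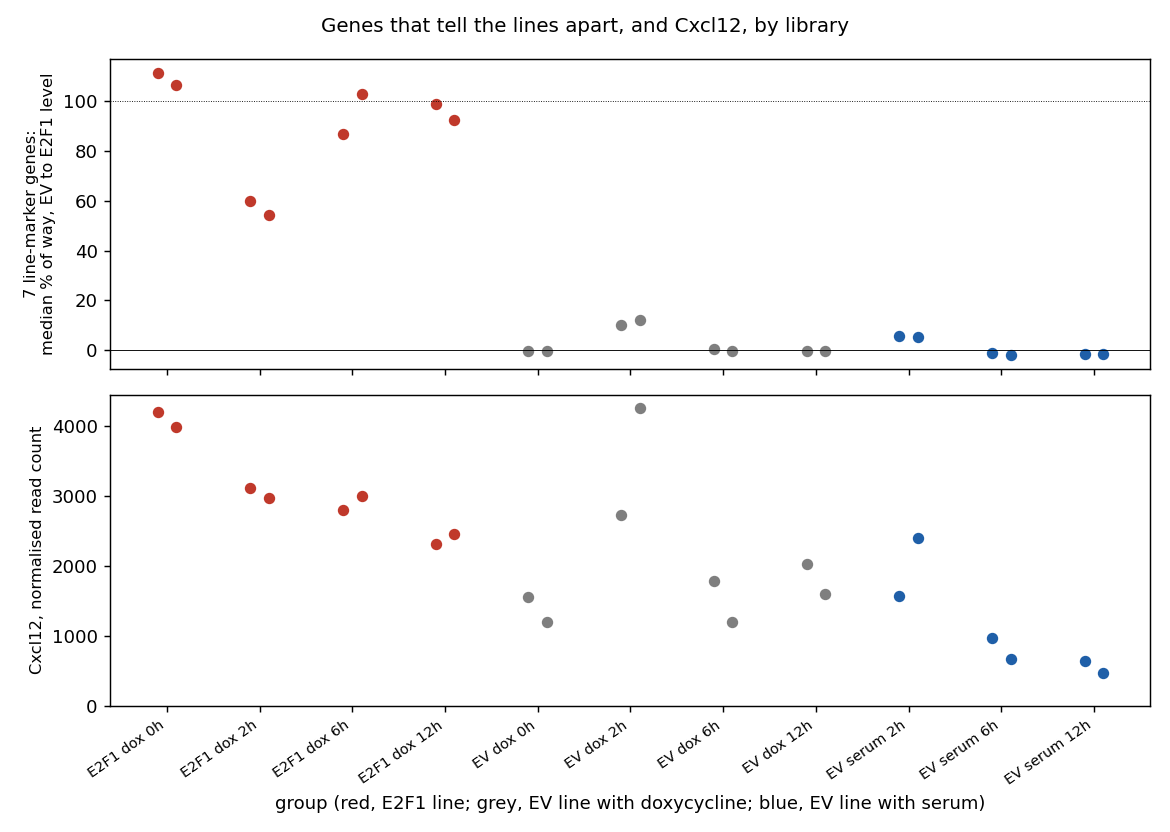
Top, median position of 7 line-marker genes on a scale from the EV-line level (0%) to the E2F1-line level (100%) in each library; bottom, Cxcl12 in normalised read counts on a linear axis from 0, by group, with 2 libraries each. The libraries labelled E2F1 2 h lie at 59.8% and 54.3%, and the EV 2 h doxycycline libraries hold 2735 and 4262 counts of Cxcl12 against 1549 and 1191 at 0 h.

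Serum and doxycycline were compared directly in the EV line at each time, without the 0 h libraries. At 2 h, 7 of 9 members were called, 6 higher and Cxcl12 lower with serum, against 67.1% of all genes. Ptgs2 differed by 5.89 ± 0.34 on the log2 scale, Lif by 5.16 ± 0.59, Ccl7 by 2.38 ± 0.37, Ccl2 by 1.90 ± 0.51, Ccl17 by 1.67 ± 0.45 and Ptgs1 by 1.47 ± 0.14 (largest adjusted p = 0.00324), and Cxcl12 by -0.81 ± 0.24 (adjusted p = 0.00580). Cxcl1 (304 and 525 against 144 and 287) and Cxcl5 (586 and 672 against 227 and 301) did not pass, at adjusted p of 0.272 and 0.154. At 6 h, 5 of 9 were called, against 65.8% of all genes: Ptgs2 (3.28 ± 0.34), Lif (1.63 ± 0.59), Ccl17 (1.61 ± 0.45) and Ptgs1 (0.95 ± 0.14) were higher with serum and Cxcl12 lower (-0.85 ± 0.24; largest adjusted p = 0.0218). At 12 h, 6 of 9 were called, against 70.4%: Cxcl5 (3.55 ± 0.77), Ptgs2 (3.03 ± 0.34), Cxcl1 (1.84 ± 0.77), Lif (1.42 ± 0.59) and Ptgs1 (0.49 ± 0.14) were higher and Cxcl12 lower (-1.72 ± 0.24; largest adjusted p = 0.0403). Lif at 12 h overlapped between the groups (321 and 202 against 215 and 41) and gave 0.24 (adjusted p = 0.717) without EV doxycycline 12 h replicate 2 and 1.09 (adjusted p = 0.206) without serum 12 h replicate 1. Cxcl1 at 12 h gave 0.91 (adjusted p = 0.379) without that same library and 1.13 (adjusted p = 0.297) without serum 12 h replicate 1. Lif at 6 h gave 0.85 (adjusted p = 0.283) without serum 6 h replicate 1 and 1.12 (adjusted p = 0.183) without EV doxycycline 6 h replicate 2. Without the 2 h libraries, Lif (adjusted p = 0.0570) and Cxcl1 (adjusted p = 0.0612) did not pass at 12 h, nor did they with equal totals (adjusted p = 0.0524 and 0.0507).

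Further calls between serum and doxycycline rested on single libraries. Cxcl12 gave -0.49 (adjusted p = 0.127) at 2 h without EV doxycycline 2 h replicate 2 and -0.50 (adjusted p = 0.119) without serum 2 h replicate 1, and at 6 h it gave -0.56 (adjusted p = 0.0847) without EV doxycycline 6 h replicate 1 and -0.59 (adjusted p = 0.0741) without serum 6 h replicate 2. Ccl17 gave 1.17 (adjusted p = 0.0695) at 2 h without EV doxycycline 2 h replicate 1 and 1.28 (adjusted p = 0.0570) at 6 h without EV doxycycline 6 h replicate 1. Ptgs1 at 12 h gave 0.37 (adjusted p = 0.0598) without serum 12 h replicate 1. The calls of Ptgs2 at all 3 times, of Lif, Ccl2, Ccl7 and Ptgs1 at 2 h, of Ptgs1 at 6 h, and of Cxcl5 and Cxcl12 at 12 h held without any 1 library. Cxcl5 (adjusted p = 1.97e-05) and Cxcl1 (0.97, adjusted p = 0.00945) passed at 2 h in a fit of the 2 groups alone.

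The change under E2F1 induction was set against the change under serum in one model, each against 0 h of its own line. At 2 h, 8 of 9 members had a lower change in the E2F1 line than under serum. Of all genes, 56.7% were called, and Ccl17 did not pass (adjusted p = 0.141). In the E2F1-line libraries labelled 2 h, the counts of E2f1 were not raised (1535 and 1755 against 1703 and 1637 at 0 h). Their line markers lay at 59.8% and 54.3% of the E2F1-line level. The parts of E2F1 induction and of the marker shift in the 2 h differences were not tested. The log2 difference was -7.71 ± 0.84 for Lif, -6.18 ± 0.48 for Ptgs2, -3.79 ± 0.72 for Ccl2, -3.64 ± 0.52 for Ccl7, -3.46 ± 1.08 for Cxcl1, -3.35 ± 1.08 for Cxcl5, -1.26 ± 0.19 for Ptgs1 and -0.95 ± 0.34 for Cxcl12 (largest adjusted p = 0.0222). At 6 h, 4 of 9 were lower, against 57.9%: Cxcl5 (-3.40 ± 1.08), Ptgs2 (-3.22 ± 0.48), Ccl17 (-1.69 ± 0.64) and Ptgs1 (-1.22 ± 0.19), with a largest adjusted p of 0.0305. At 12 h, 3 of 9 were lower, against 48.8%: Cxcl5 (-4.21 ± 1.08), Cxcl1 (-3.31 ± 1.08) and Ptgs2 (-3.08 ± 0.48), with a largest adjusted p of 0.0173. Lif, at 726 and 432 normalised read counts under E2F1 and 905 and 304 under serum at 6 h, did not differ past the threshold in its change (adjusted p = 0.434 at 6 h, 0.578 at 12 h).

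Of these differences in change, those of Ptgs2 at all 3 times, of Lif, Ccl2, Ccl7 and Ptgs1 at 2 h, of Ptgs1 at 6 h and of Cxcl5 at 12 h held without any 1 library. Without E2F1 0 h replicate 1 the 2 h differences were -2.68 for Cxcl1 (adjusted p = 0.0669), -2.98 for Cxcl5 (adjusted p = 0.0525) and -0.91 for Cxcl12 (adjusted p = 0.0586). Without EV 0 h replicate 2 Cxcl5 differed by -2.44 (2 h, adjusted p = 0.0778) and -2.49 (6 h, adjusted p = 0.0720), and that of Cxcl12 at 2 h was -0.76 (adjusted p = 0.0917). Cxcl5 at 2 h was -2.81 (adjusted p = 0.0629) without E2F1 2 h replicate 1, and Cxcl12 at 2 h was -0.92 (adjusted p = 0.0569) without E2F1 2 h replicate 2, -0.64 (adjusted p = 0.136) without serum 2 h replicate 2, and -0.58 (adjusted p = 0.141) with equal totals. Without serum 6 h replicate 1 the 6 h differences were -2.07 for Cxcl5 (adjusted p = 0.0909) and -1.41 for Ccl17 (adjusted p = 0.107). Ccl17 at 6 h was also lost without E2F1 0 h replicate 1 (-0.96, adjusted p = 0.206), E2F1 6 h replicate 2 (-1.54, 0.0841) or EV 0 h replicate 1 (-1.35, 0.119), and in a fit of the groups alone (0.0636). The 12 h difference of Cxcl1 was lost without serum 12 h replicate 1 (-2.60, adjusted p = 0.0866), E2F1 0 h replicate 1 (-2.53, 0.0959), E2F1 12 h replicate 2 (-2.88, 0.0679) or EV 0 h replicate 2 (0.0548). Some that did not pass did so without 1 library: Ccl17 at 2 h without E2F1 0 h replicate 2 (-1.87, adjusted p = 0.0163), Cxcl1 at 6 h without that library (-3.13, adjusted p = 0.0328) or serum 6 h replicate 2 (-3.49, adjusted p = 0.0110), and Ccl2 at 6 h without serum 6 h replicate 2 (-2.56, adjusted p = 0.00124).

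In some groups the 2 libraries differed far more in several chemokines than in most genes, and in the same direction. In others they did not. Ccl2 differed by 0.015 log2 units in the EV 0 h group, where the median size over all genes was 0.146. In the E2F1 12 h group it differed by 0.109, where that median was 0.128. In the serum 6 h group the log2 ratio of replicate 1 to replicate 2 was 2.67 for Cxcl5, 2.28 for Cxcl1, 2.18 for Ccl2, 1.79 for Ccl7 and 1.57 for Lif, while 95% of all genes lay within 0.70. Ptgs2 and Ptgs1 had ratios of 0.01 and 0.04 in the same pair of libraries. In the EV doxycycline 6 h group the sign was opposite, at -2.05 for Cxcl5, -1.76 for Cxcl1, -0.85 for Ccl2 and -0.79 for Ccl7, with Lif at 1.02 and a 95% range of 0.54. Ccl2, Cxcl1 and Cxcl5 had the same sign in all 11 groups, and Ccl2 and Ccl7 in 9 of 11. Over the 11 groups, Pearson's r of this replicate ratio was 0.913 between Ccl2 and Cxcl1, 0.821 between Ccl2 and Cxcl5, and 0.948 between Ccl2 and Ccl7. It was 0.647 between Lif and Ptgs2, which had the same sign in 11 of 11 groups. Which library of a group is numbered 1 may be arbitrary, and this r changes if the numbers are swapped. The cosine with Ccl2, which does not change, was 0.9198 for Cxcl1, 0.8365 for Cxcl5 and 0.9218 for Ccl7. These are descriptions over ratios of the same 22 libraries, and the genes were singled out after their values were seen. Of 629 other genes whose replicates differed by at least 1 log2 unit in some group, Amigo2, Gpr137b, Nid1 and Casp4 had replicate ratios most like those of Ccl2, with a cosine of 0.889, 0.866, 0.865 and 0.858.

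**Figure D4:**
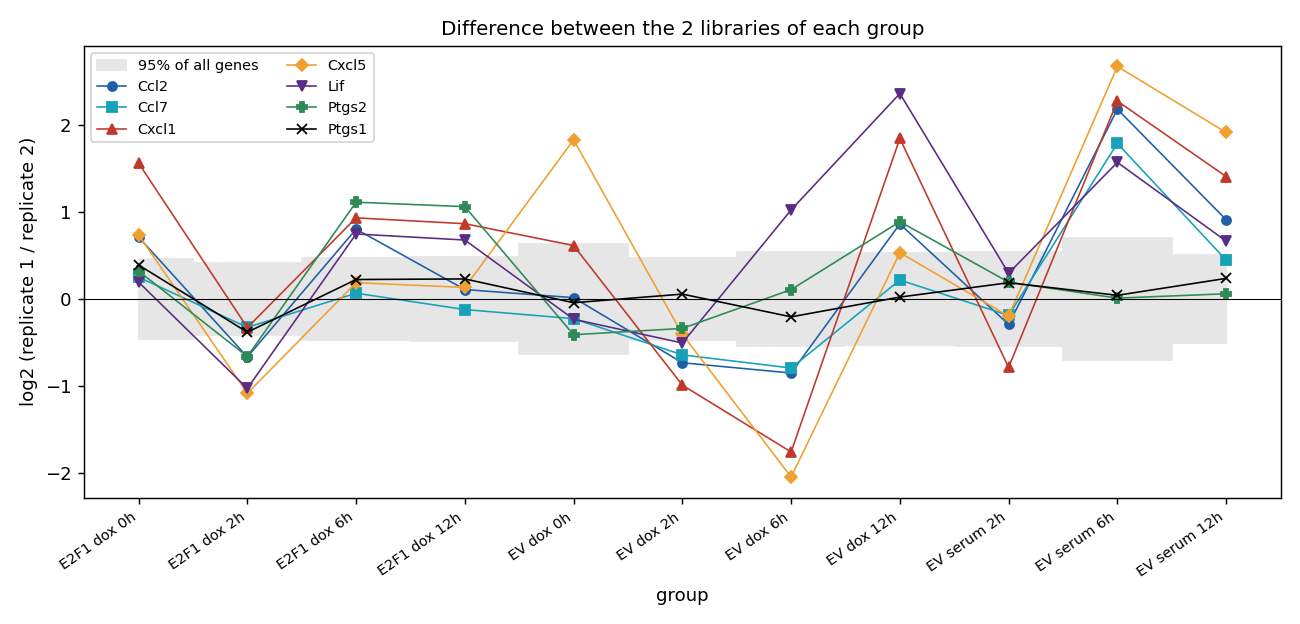
Log2 ratio of replicate 1 to replicate 2 in each of the 11 groups for 7 members, with the range that held 95% of all genes in grey. Ccl2, Ccl7, Cxcl1 and Cxcl5 leave the grey range together at serum 6 h (1.79 to 2.67) and, with the opposite sign, at EV doxycycline 6 h (-0.79 to -2.05), while Ptgs1 stays within it in all 11 groups.

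Over the 11 group means, the members fell into patterns that were described by Pearson's r of log2 values, with no test; 7 of the 9 members were highest in the serum 2 h group. Ptgs2 and Ptgs1 had an r of 0.935, Ccl2 and Ccl7 of 0.927, and Lif and Ptgs2 of 0.817, whereas Cxcl12 was negative with all 8 others, from -0.032 with Lif to -0.540 with Ptgs1. Among 7221 genes whose group means spanned at least 1 log2 unit, the genes most like Ptgs2 were Dusp5 (r = 0.993), Vasn (0.991) and Csf1 (0.990). Those most like Lif were Srxn1 (0.971), Myo9b (0.964) and Cdyl2 (0.964), and those most like Ptgs1 were Sys1 (0.983), Lin7c (0.974) and Myo1e (0.966). Ccl2 was most like C9orf72 (0.928), Cx3cl1 (0.924) and Ccn4 (0.919), Ccl7 most like Med13 (0.965), Tcim (0.951) and Top1 (0.944), and Ccl17 most like Mfap3l (0.944), Pdgfc (0.939) and Epb41l2 (0.930). Cxcl1 was most like Sod2 (0.852), Prr7 (0.843) and Il13ra1 (0.835), and Cxcl5 most like Hspb6 (0.897), Anxa8 (0.879) and Prl2c3 (0.873). For Cxcl12 they were Gas6 (0.977), Sft2d2 (0.968) and Scara5 (0.964).

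AU-rich elements in a 3′ untranslated region, built on the pentamer ATTTA, are known to mark short-lived mRNAs. In GENCODE M21 transcripts, Cxcl1 had 7 such pentamers in 592 bases, a density that 0.678% of 10477 genes in the table reached. Ptgs2 had 14 in 2445 bases (5.10% of genes reached its density), Ccl7 2 in 435 bases (8.42%), Cxcl5 5 in 1111 bases (8.86%), Ccl2 1 in 275 bases (14.1%) and Lif 7 in 3180 bases (32.5%). Cxcl12 had 4 in 5188 bases, a density that 61.4% of genes reached, and Ccl17 and Ptgs1 had none in 183 and 921 bases. The counts describe the annotated sequence and were not tested against the changes.

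Genes around the members were counted in 6 lists, and each count is to be read against the share of all genes called in the same comparison. Of 29 listed genes for prostaglandin synthesis, transport, breakdown and receptors, 18 were in the table. At 2 h of serum 11 were higher and 4 lower (70.9% of all genes were called), with a median log2 change of 0.84 against 0.03 over all genes. The prostaglandin transporters Slco2a1 (6549 and 6561 normalised read counts against 1891 and 2089, log2 change 1.72) and Abcc4 (404 and 581 against 227 and 145, 1.41) rose, as did the prostaglandin E synthase Ptges (8274 and 7849 against 2394 and 2681, 1.67). The prostaglandin F receptor Ptgfr fell from 9694 and 10455 to 755 and 723, a log2 change of -3.77. With serum at 6 h, 8 of the 18 were higher and 5 lower (67.5% of all genes), with Slco2a1 at 2.74, the phospholipase Pla2g4a, which frees arachidonic acid, at 1.23 and the prostacyclin synthase Ptgis at 1.20. At 12 h the calls were 10 higher and 5 lower (65.7% of all genes). In the E2F1 line the calls at 6 h were 4 up and 4 down, against 51.7% of all genes (3 up and 6 down with quantile normalization), and the prostaglandin E synthases Ptges3 (1.05) and Ptges2 (1.04) were among those that rose. By 12 h there were 3 up and 6 down, against 61.5% of all genes (2 up and 7 down with equal totals).

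Of 35 listed other chemokines and interleukins, 12 were in the table. At 2 h of serum 6 were higher and 4 lower, against 70.9% of all genes. Il11, another cytokine that signals through Il6st, rose from 306 and 334 to 12419 and 9751 normalised read counts (log2 change 5.10), the macrophage growth factor Csf1 from 16960 and 15872 to 145824 and 165018 (3.24), and the chemokine Cx3cl1 from 1695 and 1764 to 12178 and 12995 (2.86). Il15 fell from 208 and 125 to 3 and 6 (-4.94). In the E2F1 line 6 of 12 were lower and 1 higher at 12 h, against 61.5% of all genes, with Il34, another ligand of Csf1r, at 78 and 86 against 210 and 242 (-1.45). Of 26 listed receptors, 16 were in the table, and in the E2F1 line 10 were lower and 0 higher at 12 h, a share close to the 61.5% of all genes called, with the interleukin-6 receptor Il6ra at 618 and 604 against 1320 and 1161 (-1.02). With serum at 2 h 8 were higher and 4 lower, against 70.9% of all genes, with Lifr, through which Lif acts, at 885 and 785 against 374 and 257 (1.42) and Il11ra1 at 986 and 1120 against 3019 and 2463 (-1.37).

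Of 18 genes for JAK-STAT3 signalling and its feedback, all in the table, 11 were higher and 5 lower at 2 h of serum, against 70.9% of all genes. The feedback inhibitors Cish (1504 and 1322 against 182 and 279, log2 change 2.64) and Socs1 (1983 and 1833 against 692 and 658, 1.50) rose. In the E2F1 line Stat3 itself fell at 12 h, to 4116 and 4230 normalised read counts from 9585 and 9796 (-1.22), and the kinase Jak2 rose at 6 h, to 5525 and 5136 from 2144 and 2064 (1.34). Of 32 genes of the NF-kB and C/EBP list, 28 were in the table. At 2 h of serum 14 were higher and 10 lower, against 70.9% of all genes, with Relb at 1.42 and Nfkb1 at 1.11. In the E2F1 line at 12 h 6 were higher and 12 lower, against 61.5% of all genes. Among the lower were the inhibitor Nfkbie at -1.55 and Bcl3 at -1.07. Of 15 genes listed under decay or stability of AU-rich mRNAs, all in the table, 8 were higher and 1 lower at 2 h of serum. That share was below the 70.9% of all genes called. Among the higher were the mRNA decay factors Zc3h12a (1197 and 1098 against 320 and 228, 2.08) and Zfp36 (3068 and 2696 against 851 and 688, 1.91).

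The balance of higher and lower members of these lists at 2 h of serum moved with the scaling. When all libraries were given equal totals, the median of all genes there was -0.34 in place of 0.03, and the counts became 10 higher and 7 lower for the prostaglandin list, 4 and 5 for chemokines and interleukins, 7 and 6 for receptors, 7 and 6 for JAK-STAT3, 10 and 14 for NF-kB and C/EBP, and 5 and 5 for AU-rich decay. With quantile normalization they were 10 and 4, 6 and 2, 7 and 6, 7 and 7, 11 and 8, and 5 and 4 in the same order. In the E2F1 line at 12 h the receptor counts, 0 higher and 10 lower, were the same under both scalings. With doxycycline in the EV line, the libraries labelled 2 h had 4 of 16 receptors and 4 of 18 prostaglandin genes called higher, where 7.35% of all genes were called in either direction, and at 6 h no gene of any list was called, where limma called 15 genes in all.

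**Figure D5:**
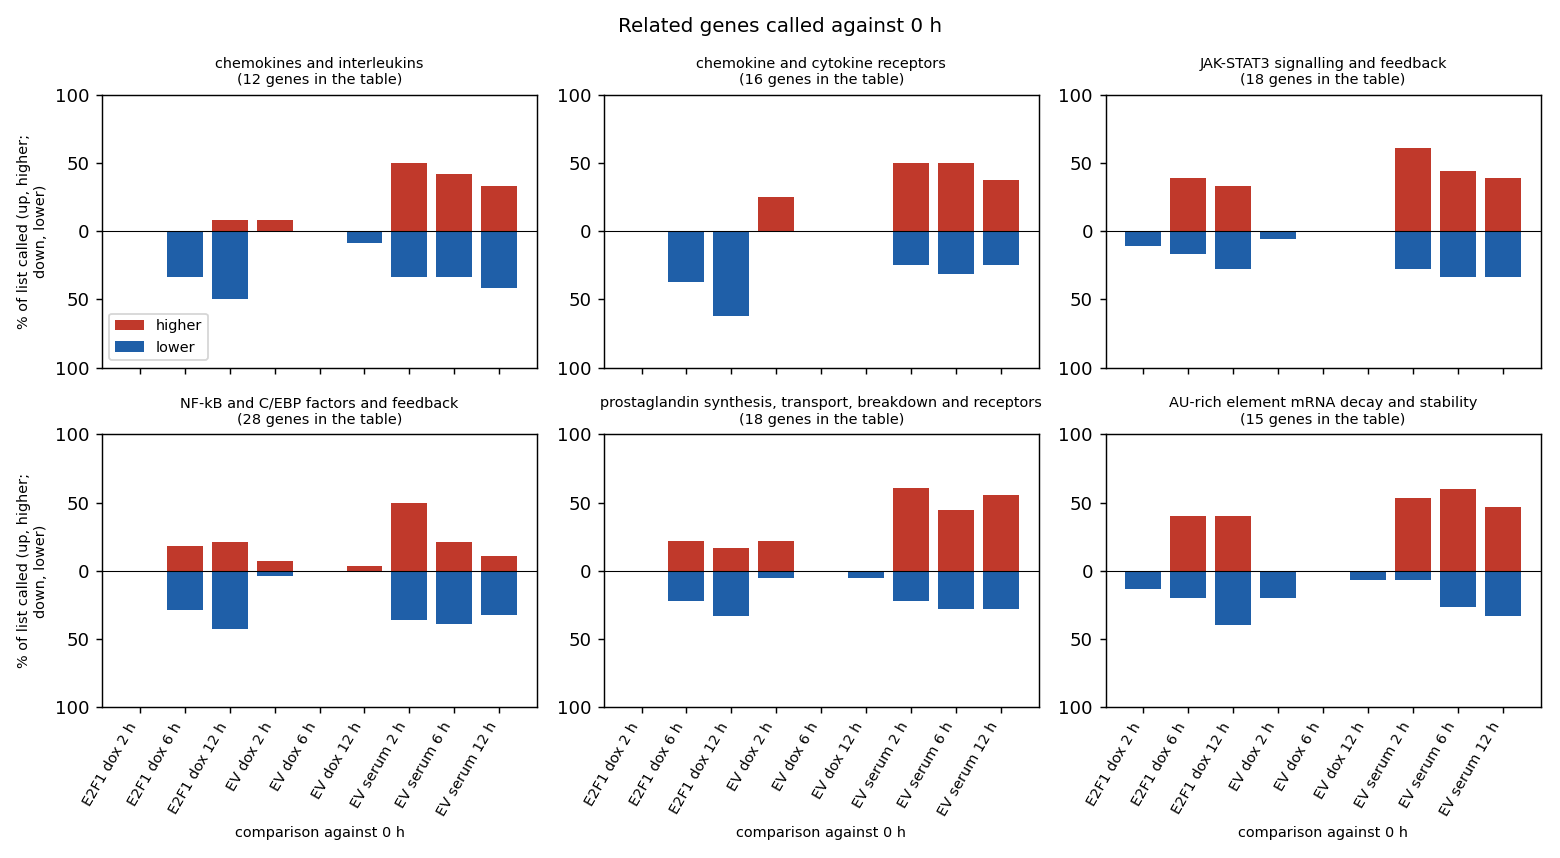
Share of each list's genes in the table that were called higher (red, upward) or lower (blue, downward) against 0 h, in percent, for the 9 comparisons. The receptor list has 10 of 16 genes lower and none higher in the E2F1 line at 12 h, where 61.5% of all genes were called, and the prostaglandin list 11 of 18 higher with serum at 2 h, where 70.9% were called, a count that other scalings changed to 10.

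The authors' deposited tables, which list only genes with a log2 fold change of about 2 or more in size, held these members. For serum at 2 h they listed Lif at 7.54, Ptgs2 at 5.61, Cxcl1 at 3.35, Ccl2 at 3.32, Ccl7 at 2.71 and Cxcl5 at 2.39. The authors' deposited table for serum at 6 h listed Lif at 2.99, Ptgs2 at 2.99, Cxcl5 at 2.76 and Cxcl1 at 2.15, and that for 12 h Cxcl5 at 3.66 and Cxcl1 at 2.52. For doxycycline in the EV line, the authors' deposited tables listed Cxcl1 at 2.37 and Lif at 2.35 at 2 h, and Cxcl1 at 2.44 at 6 h, where the present fit did not call Cxcl1 at either time. For the E2F1 line the authors' deposited tables listed Lif at 6 h, at 2.20, and no member at 2 or 12 h.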

How the data were processed

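Polyadenylated RNA of 22 NIH/3T3 libraries was analysed. Groups and replicate numbers came from the labels. The labels' protocols give paired-end sequencing with 150 bp reads. The submitters' processing notes name FastQC, Trimmomatic, HISAT2, featureCounts, DESeq2 and the mm10 build, with no versions or roles. For 11208 genes the authors deposited whole-number normalized counts, treated here as a score and not as raw counts. The authors deposited further tables of log2 fold changes with adjusted p-values for each time against 0 h, which were only set beside the results. Scaling hides the original depth, so precision rests on the spread between replicates.

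The model, fitted in limma 3.58.1 (R 4.3.3) to log2(value + 1), had a mean for each of 11 groups, 22 libraries and 11 residual degrees of freedom. Variances were moderated by empirical Bayes with a trend on the mean level. P-values were Benjamini-Hochberg adjusted over all genes in each of 19 comparisons, with a threshold of 0.05. The filter (at least 10 in 2 or more libraries) removed no gene. Fold changes are on the log2(value + 1) scale and understate those of low genes. The code was tested on simulated data. The members, gene lists, motifs and tests were chosen with earlier results of these data known. All members were named; of each list, those named came from the 3 largest called rises and falls (log2 change of at least 1 in size, higher group's mean at least 50). Correlations used group means. Positions are GRCm38 with GENCODE M21, in which 10977 gene identifiers had the same version. Alternatives were a pseudocount of 8, no filter, a mean of at least 500, equal totals, quantile normalization, a replicate block, only the groups compared, a log2 change of at least 1, and leaving out each library; leaving out the 2 h libraries was added after seeing the data. Python 3.11.15, pandas 2.3.3, numpy 2.4.6 and matplotlib 3.10.9 made tables and figures.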

Additional observations from a re-analysis of the deposited data

Results flagged for a closer look

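The change of Cxcl12 under doxycycline differed between the E2F1 line and the EV line at 2 h (log2 difference -1.76, adjusted p = 0.0483, limma) and at 12 h (-1.19, adjusted p = 0.00665), by the test of the difference itself. The 2 h difference did not pass without any 1 of 6 of its 8 libraries (adjusted p = 0.125 to 0.226) or among genes with a mean of at least 500 (adjusted p = 0.0664). At 2 h both E2F1-line libraries (3115 and 2972 normalised read counts) were below those at 0 h (4204 and 3999), and both EV libraries (2735 and 4262) were above theirs (1549 and 1191). At 12 h the E2F1 line was at 2318 and 2452 and the EV line at 2033 and 1596. The 2 h libraries are those in which line-marker genes lay between the lines; the part of this in the 2 h difference was not tested.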

How the results depend on the processing

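Of 92 log2 changes of members (called, or at least 1 in size), 66 were called. None of the 92 changed sign under any alternative. Smaller changes outside the 92 could change sign. Ccl7 with serum against doxycycline at 6 h, at -0.24, gave -1.13 without serum 6 h replicate 1. It gave 0.66 without serum 6 h replicate 2. Of the 66, 31 lost the call without some single library and 35 kept it without any; of the 26 not called, 8 gained one. With 2 libraries a group, the one left is assumed to vary like the other groups. Equal totals ended 6 calls and added 2, quantile normalization ended 1 and added 3, the groups-compared fit ended 3 and added 7, and leaving out the 2 h libraries ended 3.

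Counts of members called moved as follows, with the share of all genes called in the same fit in brackets. Counts without a share, here and for single libraries left out, describe the fits and not the members. With only the groups compared, the E2F1 line had 2 at 2 h (5.32%), 4 at 6 h (53.5%) and 6 at 12 h (62.4%). In the same setting, EV doxycycline had 5 at 2 h (3.57%) and 0 at 12 h (0.687%). E2F1 minus EV there had 2 at 6 h (32.3%) and 2 at 12 h (47.4%). E2F1 minus serum there had 5 at 12 h (45.9%). With a log2 change of at least 1 the counts were 1 at 6 h and 1 at 12 h in the E2F1 line. At that size, serum against doxycycline had 3 at 6 h. Quantile normalization gave 4 for the E2F1 line (64.7%) and 0 for EV doxycycline (4.49%) at 12 h. It gave 3 for E2F1 minus EV at 6 h (41.5%). A mean of at least 500 gave 0 for EV doxycycline at 12 h (5.07%) and 1 for the lines at 0 h (16.9%). Ccl17 was left out of both. The same setting gave 0 for E2F1 minus EV at 2 h (0.0573%), where Cxcl12 was tested and lost its call. E2F1 minus EV had 1 at 6 h with equal totals (38.8%) and 2 at 12 h with a pseudocount of 8 (50.7%). The cause was not tested.

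Leaving out 1 library gave 1 to 3 for the E2F1 line at 6 h and 1 to 4 at 12 h, 0 to 1 for EV doxycycline at 2 h and 0 to 1 at 12 h, 4 to 8 for serum at 6 h and 3 to 6 at 12 h. For E2F1 minus EV it gave 0 to 1 at 2 h, 0 to 2 at 6 h and 1 to 2 at 12 h. For serum against doxycycline it gave 3 to 7 at 6 h and 3 to 6 at 12 h, for E2F1 minus serum 5 to 9 at 2 h and 2 to 7 at 6 h, and for the lines at 0 h 1 to 3.

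The replicate block gave 1 for E2F1 minus EV at 6 h (35.7% of all genes) and moved no other count by over 1.5 times. Replicate numbers shared only a number: correlations of deviations between same-numbered libraries ran from -0.277 to 0.455 over 55 pairs of groups (median 0.031), with 18 over 0.1.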
